A study of Mus musculus with 6 samples.

Results

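Wild type mice that had breathed cigarette smoke for 4 months were compared with wild type mice kept in room air, in preparations of lung antigen presenting cells hybridised to Illumina mouse arrays. All mice were female C57BL/6. The comparison rests on 4 of the 6 arrays of the series, 2 of wild type air and 2 of wild type smoke. The other arrays, 2 of smoke-exposed mice without Spp1 (the osteopontin gene), entered the fit only through their spread. The genes compared were all 19057 annotated genes, each taken by its probe with the highest mean over the 6 arrays, and 12382 of them lay in the brighter 50% of probes and were tested. No exposure dose or age, and no way of isolating the cells, is given in the sources used here. Whether the arrays of a group hold RNA of different mice is not stated, so the tests weigh differences against a spread that may be purely technical. Values are deposited log2 intensities, in which a difference of 1 is a 2-fold difference, and a gene is said to have risen or fallen where the limma p-value, adjusted by Benjamini-Hochberg over all 12382 genes, was under 0.05.

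Antigen presenting cells of the lung are mainly alveolar macrophages, interstitial macrophages and dendritic cells. Alveolar macrophages lie on the epithelium, where they take up surfactant, dead cells and inhaled particles and break them down in lysosomes that the vacuolar ATPase acidifies. Epithelium, endothelium, fibroblasts and smooth muscle form the wall of the organ, and their RNA enters such a preparation when whole cells, fragments or free RNA are carried along. In a bulk sample, fewer cells of a type and less RNA per cell cannot be told apart.

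At the adjusted p threshold 2645 genes (21.4% of those tested) differed, 1371 (11.1%) higher and 1274 (10.3%) lower after smoke. The median difference over all tested genes was 0.04. The counts of each list below are to be read against these shares of 11.1% and 10.3%. The values of the 2 groups did not overlap for 7374 genes (59.6%), 4306 higher (34.8%) and 3068 lower (24.8%). They were also apart for all 134 genes named below that were called. For the largest differences this was a condition of being named, so a gap between groups adds little to a call. The 6675 genes below the brightness filter had differences from -1.19 to 0.80 and were not tested. Unless stated otherwise, the list medians below are those of tested members, and a gene high in only 1 group could pass the filter through that group. Counts depended on single arrays: 743 genes were called without smoke replicate 1 (299 higher, 444 lower), 925 without smoke replicate 2 (362 higher, 563 lower), 1489 without either Spp1-/- array (711 higher, 778 lower), and 3858 (2107 higher, 1751 lower) without air replicate 1, against 2768 without air replicate 2. They also depended on the scale, since quantile normalisation gives every array the same distribution of values. Macrophage genes shared by all lung macrophages stood 0.46 higher in smoke by their median level and 0.43 by the median of their gene-wise differences, and leukocyte genes 0.67 and 0.23 higher. When each array was centred on these genes, 366 and 492 genes were higher (macrophage genes) and 347 and 743 (leukocyte genes), and 12.1%, 12.7%, 4.14% and 29% of called genes were higher in place of 51.8%. The centred fits are called the 4 centrings here, and a count given without replicate 1 or 2 holds for each of the fits that left out 1 of these arrays. Leaving out either Spp1-/- array gave the same fit as the 4 wild type arrays alone, so the 6 such fits are not all different. The median SD of tested genes was 0.149 in air and 0.091 in smoke, and a fit without an array loses its group's spread. Whether this had a part in the change of counts was not tested. Of the genes that rose, 234 were called in each of the 6 fits that left out 1 array, and 170 of these were also higher under both macrophage centrings. Of those that fell, 395 were called in each of the 6 fits.

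On the deposited scale, called genes of structural cells mostly fell, whereas those of myeloid cells moved in both directions. The lists were chosen with earlier results of these data known. Genes of lung structural cells, on 14 lists, gave 157 falls and 4 rises among 246 tested, with a median difference of -1.32 (-0.85 over all annotated genes and -1.99 in the brighter 25% of probes). Genes of macrophages and dendritic cells and of their receptors, on 15 lists, gave 60 rises and 41 falls among 284. That was 21.1% and 14.4%, against 11.1% and 10.3% of all tested genes. Their median was 0.17. That median was negative under all 4 centrings (-0.50 and -0.29 on leukocyte and macrophage levels, -0.06 and -0.26 on their gene-wise differences). On 19 lists of general processes, growth factors and xenobiotic enzymes included, 145 of 510 genes rose and 40 fell. Their median was 0.30 and lay between -0.37 and 0.07 under the centrings. The lists of growth factors and xenobiotic enzymes held 23 of the 40 falls. Lymphocytes, granulocytes, platelets and red cells gave 23 falls and 3 rises among 61. Myeloid rises numbered 20 without smoke replicate 1 and 22 without smoke replicate 2 and myeloid falls 12 without smoke replicate 1, 20 without smoke replicate 2 and 22 without either Spp1-/- array. Rises on the general lists numbered 35 without smoke replicate 1, 44 without smoke replicate 2 and 81 without either Spp1-/- array, and falls 19 without smoke replicate 1 and 20 without smoke replicate 2. Structural falls numbered 85 without smoke replicate 1, and those of other blood cells 7 without smoke replicate 1, 14 without smoke replicate 2 and 13 without either Spp1-/- array. Under the 4 centrings myeloid genes gave 23 to 42 rises and 51 to 149 falls, and structural genes 0 to 3 rises and 175 to 235 falls. Of the 234 genes whose rise was called in all 6 leave-one-out fits, 0 were on a structural list and 18 on a myeloid one. Among the 395 falls held in all 6, 82 were on a structural list and 10 on a myeloid list. The mean level of the tested structural genes was 9.73 and 9.93 on the air arrays and 8.39 and 8.53 on the smoke arrays, whereas that of the myeloid genes was 9.91 and 9.87 against 10.01 and 10.04. Whether the smaller share of structural RNA had a part in the rise of other genes was not tested.

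**Figure D1:**
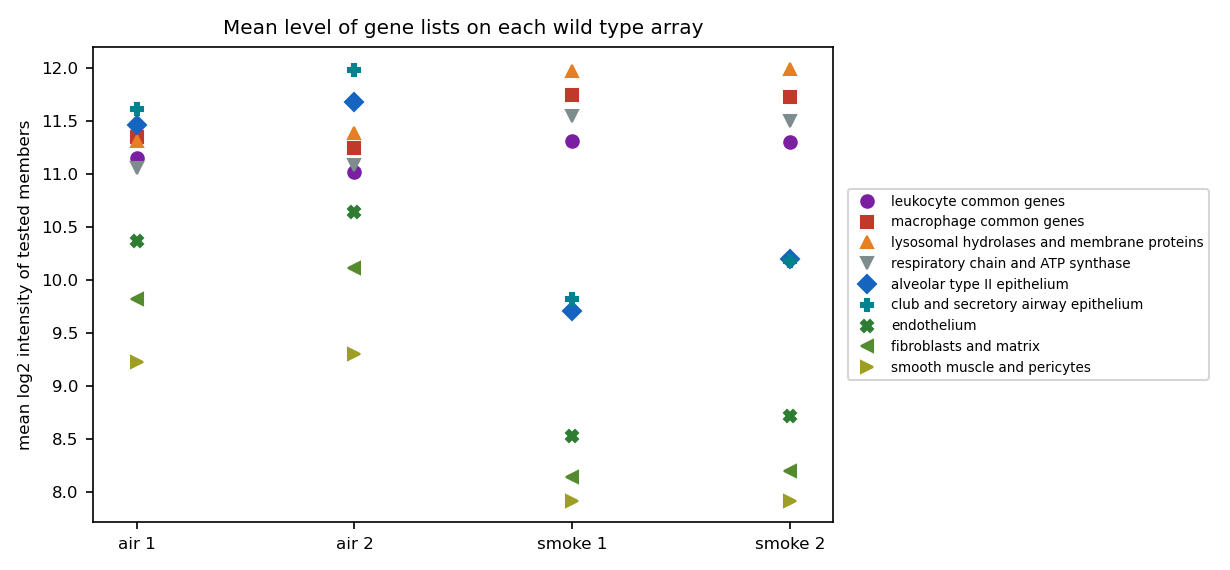
Mean log2 intensity of the tested members of 9 gene lists (vertical axis) on each of the 4 wild type arrays (horizontal axis), 1 marker per list and array. The 5 lists of epithelium, endothelium, fibroblasts and smooth muscle were lower on both smoke arrays than on both air arrays, and the leukocyte, macrophage, lysosomal and respiratory chain lists were higher on this scale. The leukocyte median was negative under all 4 centrings, and the medians of the macrophage, lysosomal and respiratory chain lists under at least 1.

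**Figure D2:**
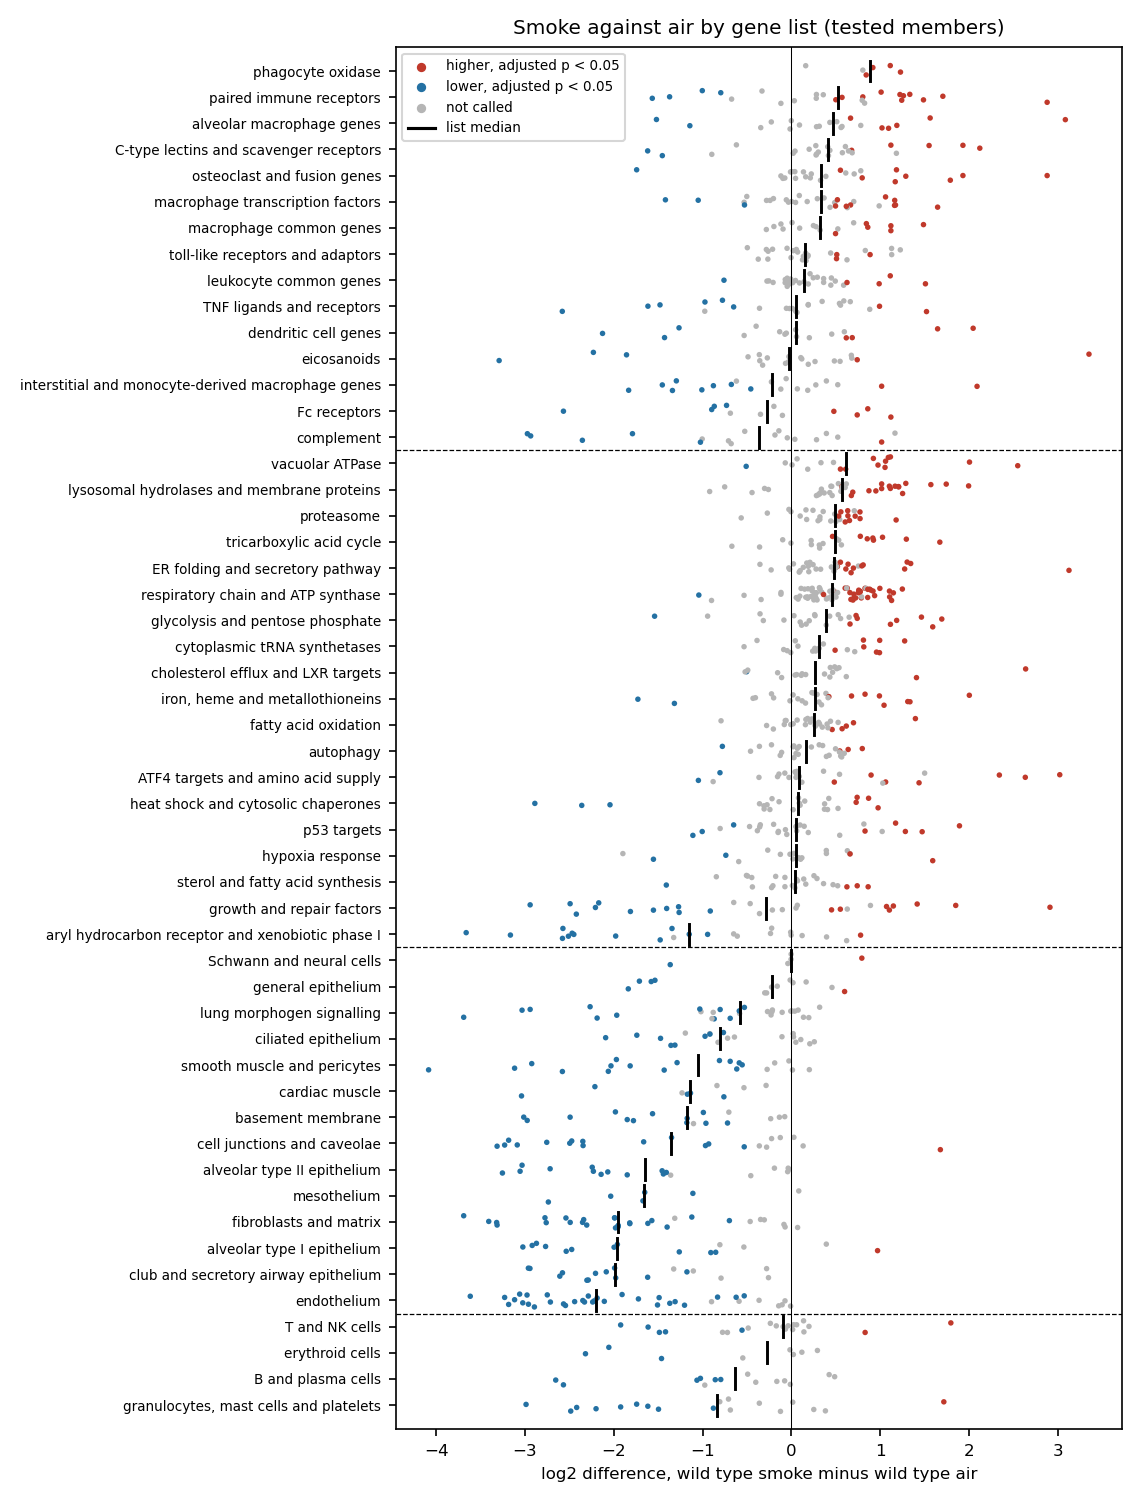
Log2 difference of smoke against air (horizontal axis) for each tested member of 52 gene lists, sorted by class and by median. Red points rose, blue points fell, grey points were not called, black bars are list medians, and dashed lines part the myeloid, general, structural and blood cell lists. The medians of 13 of the 14 structural lists lie below 0, and that of the neural list, with 5 tested genes, at 0.00.

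Genes that define macrophages were bright on the arrays of both conditions. Lyz2 (lysozyme) stood at 15.43 and 15.41 on the air arrays and 15.44 and 15.59 on the smoke arrays, and Chil3, a chitinase-like protein of alveolar macrophages, at 15.65 and 15.55 on the air arrays and 15.53 and 15.64 on the smoke arrays. Csf1r, the receptor for the macrophage growth factor, stood at 10.91 and 10.97 on the air arrays and 10.78 and 10.91 on the smoke arrays. None of the 3 differed at the threshold, and the values of Chil3 and Csf1r overlapped between groups. Lyz2 and Chil3 lay near the highest value on the arrays (16.014), where a rise would be hard to see. The dendritic cell markers Flt3 and Xcr1 lay between 7.07 and 7.45 on all 4 arrays, near the median of all probe values (7.26), and were not called, and Cd209a was below the filter. Other genes of these cells did move. Of 17 dendritic cell genes 4 rose and 3 fell, with differences from -2.13 to 2.05 (median 0.05, between -0.62 and -0.18 with 2 higher and 4 to 10 lower under the centrings). Those rises numbered 1 without smoke replicate 1 or 2, and the falls 1 without smoke replicate 1 or 2, 1 without either Spp1-/- array and 1 without air replicate 2. Siglecf, a lectin of alveolar macrophages, also lay near that median, between 7.39 and 7.72. Tyrobp, the signalling adaptor of activating myeloid receptors, was a marker that rose, standing at 11.68 and 11.66 on the air arrays and 13.14 and 13.18 on the smoke arrays, a difference of 1.49 ± 0.09 (SE; limma adjusted p = 0.00175). Both smoke arrays lay above both air arrays.

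Genes shared by all macrophages, on a list of 17, gave 6 rises and 0 falls (median 0.32, between -0.35 and 0.10 with 1 to 4 higher and 0 to 6 lower under the centrings). Genes shared by leukocytes gave 4 and 1 among 29 (median 0.14, between -0.53 and -0.09 with 1 to 2 higher and 2 to 16 lower). That was 13.8% higher and 3.45% lower, against 11.1% and 10.3% of all tested genes. Genes of macrophage subsets moved in both directions. Of 20 alveolar macrophage genes 6 rose and 2 fell (median 0.47, between -0.20 and 0.24 with 2 to 5 higher and 3 to 8 lower under the 4 centrings). Fabp5, a fatty acid binding protein, stood at 9.0 and 8.23 on the air arrays and 11.88 and 11.52 on the smoke arrays, a difference of 3.08 ± 0.30 (SE; limma adjusted p = 0.00381). Car4, a membrane carbonic anhydrase, stood at 11.69 and 11.39 on the air arrays and 13.18 and 13.02 on the smoke arrays and rose by 1.56 ± 0.17. The falls were those of the lipid droplet protein gene Cidec (-1.52) and of the keratin gene Krt79 (-1.14). The list of interstitial and monocyte-derived macrophages gave 8 falls and 2 rises among 19 (median -0.22, between -0.90 and -0.45 with 1 to 2 higher and 8 to 14 lower). Tmem176b, an ion channel gene of immature dendritic cells and macrophages, stood at 12.92 and 13.28 on the air arrays and 11.23 and 11.30 on the smoke arrays, and its neighbour Tmem176a changed by -1.34, so that both smoke arrays lay below both air arrays. Stab1, a scavenger receptor, fell by 1.45 on the log2 scale. The rises were those of Ms4a7, a membrane protein of macrophages, at 8.93 and 9.39 on the air arrays and 11.33 and 11.17 on the smoke arrays, a difference of 2.09 ± 0.18 (SE; limma adjusted p = 0.0028), and of C1qb, a chain of complement C1q, at 1.02 ± 0.16. Rises of shared macrophage genes numbered 1 without smoke replicate 1 or 2, and of leukocyte genes 0 without smoke replicate 1 or 2, 1 without either Spp1-/- array and 7 without air replicate 1, whose single fall became 0 without smoke replicate 1 or 2. On the alveolar list rises numbered 2 without smoke replicate 1 and falls 0 without smoke replicate 1. On the interstitial list rises numbered 1 without smoke replicate 1 or 2 and falls 2 without smoke replicate 1, 4 without smoke replicate 2 and 4 without either Spp1-/- array. Calls were lost without smoke replicate 1 for Cidec, Krt79, Stab1 and C1qb and without smoke replicate 2 for Stab1 and C1qb.

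Among 30 transcription factors of macrophages 9 rose and 3 fell (median 0.33, between -0.34 and 0.10 with 1 to 5 higher and 4 to 13 lower under the centrings). Irf4, a factor of alternatively activated macrophages and of a dendritic cell lineage, stood at 7.73 and 7.91 on the air arrays and 9.45 and 9.48 on the smoke arrays. Bhlhe40, a repressor known from the self-renewal of alveolar macrophages, stood at 12.16 and 11.95 on the air arrays and 13.28 and 13.15 on the smoke arrays. Id2, an inhibitor of basic helix-loop-helix factors, rose by 1.16 ± 0.10. In all 3 both smoke values lay above both air values, and the calls held in each leave-one-out fit. The related inhibitor Id3 and the shear-responsive factor Klf2, which endothelium also expresses, fell by 1.05 and 1.42 on the log2 scale. Spi1, the lineage factor of myeloid cells, rose by 0.50 ± 0.10 on the deposited scale and changed sign when arrays were centred on the median level of leukocyte genes. Risen factors numbered 3 without smoke replicate 1, 4 without smoke replicate 2 and 5 without either Spp1-/- array, and fallen ones 0 without smoke replicate 1 or 2 and 1 without either Spp1-/- array. Calls were lost without smoke replicate 1 for Id3, Klf2 and Spi1, without smoke replicate 2 for Id3, Klf2 and Spi1, without either Spp1-/- array for Id3 and Spi1 and without air replicate 2 for Spi1.

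Paired immune receptors, families in which activating members signal through Tyrobp or a like adaptor and others inhibit, gave 11 rises and 4 falls among 24 tested (median 0.53, between -0.14 and 0.31 with 7 to 8 higher and 5 to 8 lower under the centrings). Cd33, a receptor for sialic acids, stood at 9.63 and 9.12 on the air arrays and 11.03 and 11.13 on the smoke arrays, a difference of 1.71 ± 0.19 (SE; limma adjusted p = 0.00558). Cd300a, an inhibitory receptor for phospholipids of dying cells, stood at 7.72 and 7.66 on the air arrays and 8.90 and 8.96 on the smoke arrays, and its activating relative Cd300ld rose by 1.26 ± 0.13. Sirpb1a, an activating receptor, rose by 1.22 ± 0.16. The groups did not overlap for any of these 4. Falls on this list belonged to genes of B cells and platelets, Cd22 (-0.80), Siglecg (-1.0) and Treml1 (-1.37), and to Klra2 (-1.57), a lectin-like receptor. Of 24 C-type lectins and scavenger receptors 5 rose and 2 fell (median 0.41, between -0.26 and 0.18 with 3 higher and 3 to 9 lower), led by the neighbouring fungal receptors Clec4n (dectin-2), at 11.91 and 11.76 in air and 13.40 and 13.37 in smoke, and Clec4d, at 8.91 and 9.13 in air and 11.12 and 11.17 in smoke. The scavenger receptor gene Marco was not called (0.43). Fc receptors, which bind antibodies, gave 4 rises and 4 falls among 12 (median -0.27, between -0.94 and -0.50 with 0 to 3 higher and 5 to 8 lower under the centrings). Osteoclast and fusion genes gave 8 rises and 1 fall among 25 (median 0.33, between -0.34 and 0.10 with 6 higher and 1 to 11 lower), with Acp5, the tartrate-resistant phosphatase of osteoclasts and alveolar macrophages, at 8.38 and 8.5 in air and 9.53 and 9.71 in smoke. Risen paired receptors numbered 6 without smoke replicate 1 and 7 without smoke replicate 2, and fallen ones 0 without smoke replicate 1, 2 without smoke replicate 2 and 2 without either Spp1-/- array. Risen lectins numbered 2 without smoke replicate 1 or 2 and 8 without air replicate 1, and fallen ones 0 without smoke replicate 1 or 2 and 1 without either Spp1-/- array. Risen Fc receptors numbered 0 without smoke replicate 1 or 2, fallen ones 1 without smoke replicate 1 or 2, and risen osteoclast genes 3 without smoke replicate 1 or 2. The calls of fallen genes were lost without smoke replicate 1 for Cd22, Siglecg, Treml1 and Klra2, without smoke replicate 2 for Siglecg and Klra2 and without either Spp1-/- array for Siglecg and Klra2.

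The phagocyte oxidase, which makes superoxide at the phagosome, rose in 4 of 6 tested genes and fell in 0 (median 0.88, between 0.21 and 0.65 with 1 to 4 higher and 0 to 1 lower under the centrings). Ncf4, the p40phox subunit, stood at 10.85 and 10.77 on the air arrays and 12.09 and 11.98 on the smoke arrays, a difference of 1.23 ± 0.10 (SE; limma adjusted p = 0.00263). Cyba, the p22phox subunit in the membrane, stood at 12.13 and 12.05 on the air arrays and 13.05 and 13.36 on the smoke arrays, a difference of 1.11 ± 0.17 (SE; limma adjusted p = 0.0115). For both genes the smoke arrays lay above the air arrays. Risen oxidase genes numbered 2 without smoke replicate 1 and 1 without smoke replicate 2, and the call of Cyba was lost without smoke replicate 2.

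Genes of the lysosome and of its proton pump rose in larger shares than tested genes at large. Of 37 hydrolases and membrane proteins 17 rose and 0 fell (45.9% higher against 11.1% of all tested genes), with a median of 0.57 that lay between -0.10 and 0.34 with 7 to 14 higher and 2 to 7 lower under the centrings. Of 17 vacuolar ATPase genes 10 rose and 1 fell (median 0.61, between -0.06 and 0.38 with 2 to 8 higher and 1 to 6 lower). Lamp1, the main glycoprotein of the lysosomal membrane, stood at 13.91 and 14.09 on the air arrays and 15.16 and 15.35 on the smoke arrays, a difference of 1.25 ± 0.13 (SE; limma adjusted p = 0.00431). Acp2, the lysosomal acid phosphatase, stood at 10.95 and 11.03 on the air arrays and 12.27 and 12.30 on the smoke arrays, and Gpnmb, a glycoprotein of loaded lysosomes, at 13.82 and 13.49 on the air arrays and 15.15 and 15.29 on the smoke arrays. These 3 rose in every leave-one-out fit, with no overlap between groups. Of the ATPase subunits, Atp6v1c1 of the cytosolic ring stood at 9.84 and 9.54 on the air arrays and 12.21 and 12.26 on the smoke arrays, a difference of 2.55 ± 0.13 (SE; limma adjusted p = 0.00157). Atp6v1h, the regulatory subunit, rose by 2.0 ± 0.14, Atp6v1e1 of the stalk by 1.05 ± 0.10 and Atp6v0d1 of the membrane part by 1.09 ± 0.12. Leaving out arrays gave 6 without smoke replicate 1 and 7 without smoke replicate 2 for the lysosome, and 4 without smoke replicate 1, 6 without smoke replicate 2 and 6 without either Spp1-/- array for the ATPase. Lysosomal falls became 2 without air replicate 1 and 1 without air replicate 2, and the single ATPase fall became 0 without smoke replicate 1 or 2, 0 without either Spp1-/- array and 0 without air replicate 2. Autophagy genes, which act upstream of the lysosome, gave 3 rises and 1 fall among 26. Their share of rises, 11.5%, was near the 11.1% of all tested genes, and 3.85% fell, against 10.3%. Their median was 0.16 (between -0.52 and -0.07 with 0 higher and 2 to 13 lower under the centrings). Those rises numbered 0 without smoke replicate 1 or 2, 0 without either Spp1-/- array and 5 without air replicate 1, and the fall 0 without smoke replicate 1 and 2 without air replicate 1.

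The promoters of lysosomal genes often hold the palindrome CACGTG, the core of the sites at which the factors TFEB and TFE3 bind. It was searched in RefSeq promoters of GRCm38.p6 (300 bases around each start, both strands) with the CLEAR element, a longer palindrome that contains it, TGATGNAAN, the core of the amino acid response element of ATF4, and TGACNNNGC, that of the NRF2 site. CACGTG was present in 11.1% of tested genes with a promoter, in 11 of 35 lysosomal genes and in 8 of the 17 that rose, and in 4 of 11 ATPase genes. The CLEAR element was counted only where every letter of the longer palindrome matched. Such exact matches were found in 0 of 35 lysosomal genes and 0 of 11 ATPase genes, against 0.622% of tested genes. Sites that differ from it in any letter were not counted, so these counts cannot show whether the promoters lack other forms of the element. TGACNNNGC was found in 16.1% of tested genes, in 8 of 35 lysosomal and in 2 of 11 ATPase genes, and TGATGNAAN in 3.09%, 3 and 1. Both promoters are shown because their genes rose in every leave-one-out fit and hold the letters, and they were chosen after these calls were seen. The other risen genes named for the lysosome and its pump, Acp2, Gpnmb, Atp6v1c1, Atp6v1h and Atp6v1e1, gave no match or had no promoter. Lamp1, with 4 copies, lies at chr8:13159055-13159190 on the plus strand and Atp6v0d1 at chr8:105566035-105566112 on the minus strand. Capitals mark CACGTG, and a match describes letters only.
Lamp1: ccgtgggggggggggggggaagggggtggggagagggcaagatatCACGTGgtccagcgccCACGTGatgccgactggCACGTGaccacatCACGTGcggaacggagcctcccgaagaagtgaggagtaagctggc
Atp6v0d1: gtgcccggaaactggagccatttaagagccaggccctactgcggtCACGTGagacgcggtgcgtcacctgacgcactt

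**Figure D3:**
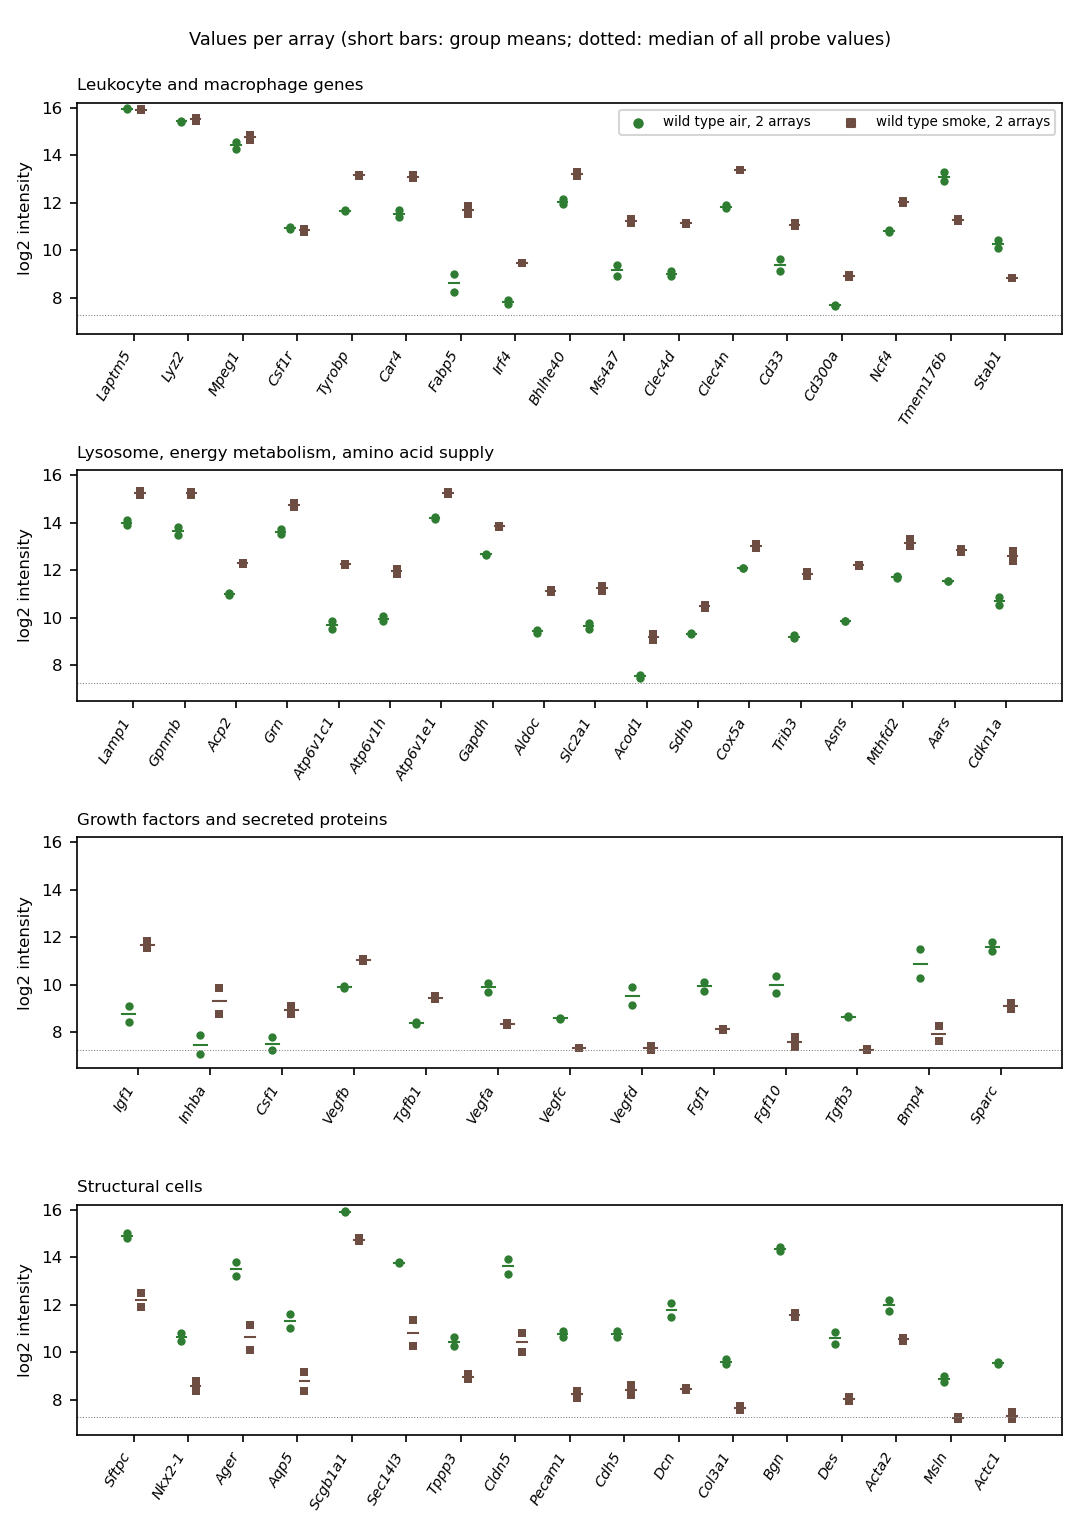
Log2 intensity (vertical axis) of named genes on the 2 air arrays (green circles) and the 2 smoke arrays (brown squares), with group means as short bars and the median of all probe values as a dotted line. The markers Lyz2 and Csf1r differ little, lysosomal and amino acid supply genes sit higher in smoke, and the structural genes of the lowest row sit lower on both smoke arrays.

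Many genes of energy metabolism rose, mostly by amounts near the shift of the macrophage genes themselves. Of 68 subunits of the respiratory chain and ATP synthase 28 rose and 1 fell, with a median of 0.46 (between -0.21 and 0.23 with 1 to 14 higher and 2 to 16 lower under the centrings). Sdhb, the iron-sulfur subunit of complex II, stood at 9.35 and 9.30 on the air arrays and 10.42 and 10.53 on the smoke arrays, a difference of 1.15 ± 0.12 (SE; limma adjusted p = 0.00417). Cox5a of complex IV rose by 0.89 ± 0.11 and Ndufb6 of complex I by 1.13 ± 0.13. The groups were apart for these 3. In the tricarboxylic acid cycle 8 of 20 genes rose (median 0.49, between -0.19 and 0.26 with 2 to 5 higher and 0 to 5 lower), with Idh3b, a subunit of isocitrate dehydrogenase, at 0.92 ± 0.10. Acod1, whose enzyme turns the cycle's aconitate into itaconate in activated macrophages, stood at 7.58 and 7.48 on the air arrays and 9.08 and 9.32 on the smoke arrays, a difference of 1.67 ± 0.13 (SE; limma adjusted p = 0.00254). Of 25 glycolytic and pentose phosphate genes 8 rose and 1 fell (median 0.39, between -0.28 and 0.16 with 4 to 5 higher and 3 to 11 lower). Slc2a1, the widely expressed glucose transporter, stood at 9.51 and 9.78 on the air arrays and 11.13 and 11.34 on the smoke arrays, whereas Slc2a3, another glucose transporter, changed by -1.54. Gapdh, often taken as a reference gene, stood at 12.64 and 12.68 on the air arrays and 13.87 and 13.82 on the smoke arrays. Aldoc and Pgam1, enzymes of the same pathway, rose by 1.69 ± 0.10 and 1.46 ± 0.13. Fatty acid oxidation had 5 rises and 0 falls among 28 (median 0.25, between -0.42 and 0.02 with 0 to 1 higher and 0 to 11 lower). Risen respiratory chain genes numbered 3 without smoke replicate 1, 4 without smoke replicate 2 and 13 without either Spp1-/- array, cycle genes 3 without smoke replicate 1, 4 without smoke replicate 2 and 5 without either Spp1-/- array, glycolytic genes 4 without smoke replicate 1 and 5 without smoke replicate 2 and fatty acid oxidation genes 0 without smoke replicate 1 or 2, 0 without either Spp1-/- array and 3 without air replicate 1 or 2. The single falls of the respiratory chain and of glycolysis became 0 without smoke replicate 1 or 2 and 2 without air replicate 1 on both lists, and cycle and fatty acid oxidation falls, 0 with all arrays, became 1 without air replicate 2 and 1 without air replicate 1. The call of Slc2a3 was lost without smoke replicate 1 and without smoke replicate 2.

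Proteasome genes, which break down proteins outside the lysosome, gave 10 rises and 0 falls among 27 (median 0.49, between -0.18 and 0.26 with 0 to 1 higher and 1 to 7 lower under the centrings). Psmb2, a subunit of the core ring, had the largest difference, 1.18 ± 0.14 (SE; limma adjusted p = 0.00594). Leaving out arrays gave 0 without smoke replicate 1, 1 without smoke replicate 2 and 3 without either Spp1-/- array, and the call of Psmb2 was lost without smoke replicate 1.

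**Figure D4:**
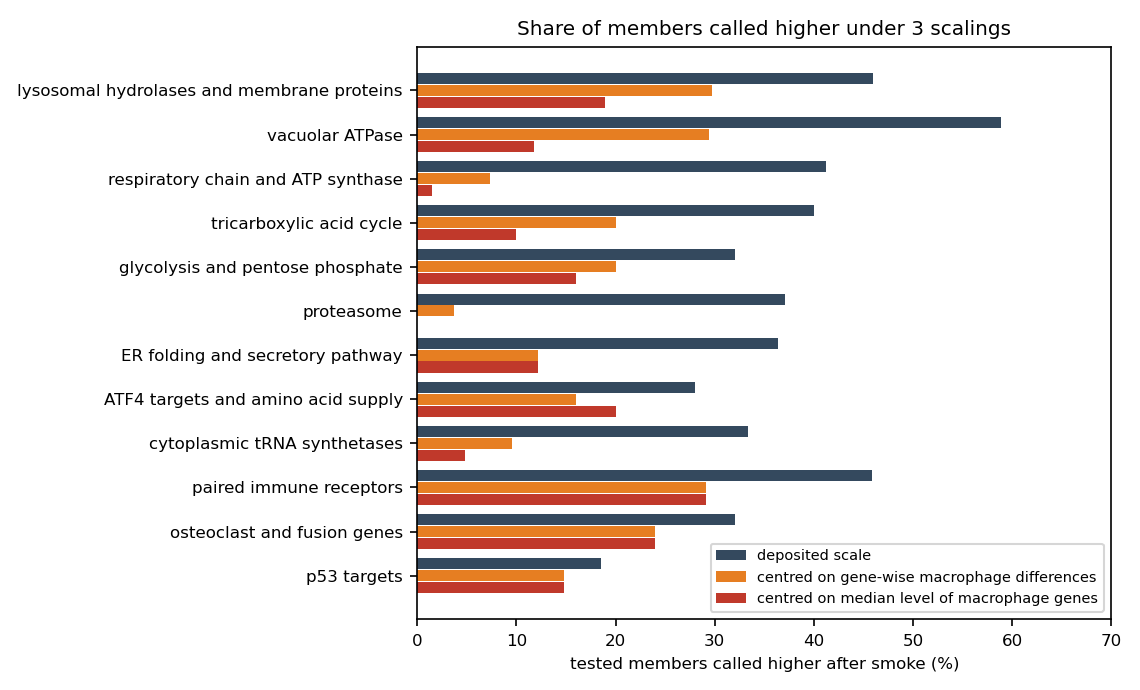
Percentage of tested members called higher after smoke (horizontal axis) for 12 gene lists on the deposited scale and after centring each array on macrophage genes in either way. On the respiratory chain list 28 of 68 genes were higher on the deposited scale and 5 and 1 after the centrings, and on the paired receptor list 11 of 24, 7 and 7.

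Genes for amino acid supply showed few but large rises. On the list of targets of ATF4, the factor of the amino acid response, 7 of 25 rose and 2 fell, and the median was 0.09 (between -0.58 and -0.14 with 4 to 6 higher and 3 to 13 lower under the centrings). Slc7a11, the cystine transporter, stood at 9.43 and 8.58 on the air arrays and 12.03 and 12.03 on the smoke arrays, a difference of 3.02 ± 0.28 (SE; limma adjusted p = 0.00332). Trib3, a pseudokinase that restrains the response, stood at 9.15 and 9.26 on the air arrays and 11.75 and 11.93 on the smoke arrays, a difference of 2.63 ± 0.14 (SE; limma adjusted p = 0.00157). Asns, asparagine synthetase, stood at 9.86 and 9.87 on the air arrays and 12.23 and 12.18 on the smoke arrays, a difference of 2.34 ± 0.11 (SE; limma adjusted p = 0.00128). The smoke arrays lay above the air arrays for all 3. Mthfd2, a folate enzyme of mitochondria, rose by 1.44 ± 0.14. Atf4 itself was not called (0.06), and Nupr1, a stress-induced chromatin protein, and Atf5 fell by 1.05 and 0.80 on the log2 scale. Among 21 genes of cytoplasmic tRNA synthetases 7 rose and 0 fell (median 0.31, between -0.36 and 0.08 with 1 to 5 higher and 0 to 8 lower), and Aars, for alanine, stood at 11.56 and 11.55 on the air arrays and 12.76 and 12.90 on the smoke arrays. In the endoplasmic reticulum 12 of 33 folding and secretory genes rose and 0 fell (median 0.48, between -0.19 and 0.25 with 3 to 5 higher and 0 to 12 lower). Hspa5, the main chaperone of the reticulum, was not called (0.49), while Creld2, a chaperone of the secretory pathway, rose by 1.34 ± 0.18. Risen ATF4 targets numbered 4 without smoke replicate 1 or 2, synthetases 3 without smoke replicate 1 or 2 and 3 without either Spp1-/- array, and reticulum genes 1 without smoke replicate 1 or 2 and 7 without either Spp1-/- array. Fallen ATF4 targets numbered 0 without smoke replicate 1 or 2 and 1 without either Spp1-/- array, and fallen reticulum genes 1 without air replicate 2. Calls were lost without smoke replicate 1 for Nupr1, Atf5 and Creld2, without smoke replicate 2 for Nupr1, Atf5 and Creld2 and without either Spp1-/- array for Atf5.

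The letters TGATGNAAN were present in 3.09% of tested genes with a promoter, in 7 of 26 ATF4 list genes and in 3 of the 7 that rose, and in 5 of 15 synthetase genes and in 2 of the 6 risen ones. The other motifs were frequent there too. TGACNNNGC was found in 9 of 26 ATF4 list genes and 6 of 15 synthetase genes (40%), against 16.1% of tested genes, and CACGTG in 3 and 4 (26.7% of synthetases), against 11.1%. Exact matches to the CLEAR palindrome were found in 0 and 1. The 4 promoters shown belong to genes of both lists that rose in every leave-one-out fit and hold the letters, chosen after their calls were seen. Mthfd2, which also rose, gave no match or had no promoter. Trib3 lies at chr2:152344031-152344092 on the minus strand, Asns at chr6:7693180-7693277 on the minus strand, Slc7a11 at chr3:50443608-50443724 on the minus strand and Aars at chr8:111033684-111033871 on the plus strand (GRCm38.p6, RefSeq), and the Trib3 match lies after the start, the first match of the others before it. Capitals mark the match, which reads as its reverse complement where it ends in ATCA.
Trib3: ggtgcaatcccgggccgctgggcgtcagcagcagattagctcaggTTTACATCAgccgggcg
Asns: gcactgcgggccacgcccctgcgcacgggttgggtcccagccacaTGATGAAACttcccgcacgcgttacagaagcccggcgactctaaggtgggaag
Slc7a11: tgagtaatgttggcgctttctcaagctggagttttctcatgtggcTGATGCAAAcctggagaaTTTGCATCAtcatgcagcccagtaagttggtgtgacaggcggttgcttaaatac
Aars: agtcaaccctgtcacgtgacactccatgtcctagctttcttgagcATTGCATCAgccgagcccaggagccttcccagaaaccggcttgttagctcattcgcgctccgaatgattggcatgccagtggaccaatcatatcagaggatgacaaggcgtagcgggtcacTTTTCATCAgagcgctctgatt

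Growth and repair factors moved in both directions. Of 28 tested 8 rose and 11 fell (median -0.29, between -0.96 and -0.51 with 3 to 6 higher and 13 to 18 lower under the centrings, and -0.11 without air replicate 1). Igf1, a growth factor made by macrophages and fibroblasts, stood at 8.45 and 9.10 on the air arrays and 11.53 and 11.84 on the smoke arrays, a difference of 2.91 ± 0.24 (SE; limma adjusted p = 0.00275). Tgfb1, the transforming growth factor of leukocytes, stood at 8.34 and 8.45 on the air arrays and 9.42 and 9.52 on the smoke arrays, and Vegfb, an endothelial factor, rose by 1.15 ± 0.10. For all 3 the smoke arrays lay above the air arrays. Grn (progranulin), a lysosomal and secreted protein, rose by 1.10 ± 0.12, and Csf1, the macrophage growth factor, and Inhba, an activin subunit, by 1.42 ± 0.22 and 1.85 ± 0.43. Falls included Vegfa, the angiogenic factor that alveolar epithelium makes, at 10.08 and 9.72 on the air arrays and 8.31 and 8.38 on the smoke arrays, a difference of -1.55 ± 0.17 (SE; limma adjusted p = 0.00492). Vegfc and Vegfd, factors of lymphatic vessels, changed by -1.26 and -2.17, and Tgfb3 by -1.40. The mesenchymal factors Fgf10, Bmp4 and Fgf1 changed by -2.42, -2.94 and -1.81, and the matrix protein gene Sparc by -2.49. These falls accompanied those of the structural markers, whose part in them was not tested. Risen factors numbered 5 without smoke replicate 1 or 2, 5 without either Spp1-/- array and 5 without air replicate 2, and fallen ones 7 without smoke replicate 1 and 5 without smoke replicate 2. Calls were lost without smoke replicate 1 for Csf1, Vegfd and Bmp4, without smoke replicate 2 for Csf1, Inhba, Vegfd, Fgf10 and Bmp4, without either Spp1-/- array for Inhba and without air replicate 2 for Inhba.

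Lists of stress and of the handling of smoke constituents differed in direction, with rises and falls of p53 and iron genes and many falls of phase I enzymes. Of 27 p53 targets 5 rose and 3 fell (median 0.05, between -0.62 and -0.18 with 3 to 4 higher and 6 to 19 lower under the centrings). Cdkn1a, the cell cycle inhibitor p21, stood at 10.54 and 10.86 on the air arrays and 12.39 and 12.79 on the smoke arrays, a difference of 1.89 ± 0.18 (SE; limma adjusted p = 0.00376). Gadd45a, a DNA damage response gene, rose by 1.47 ± 0.12, and both genes were apart between groups, whereas the p53 target Sesn1 fell by 1.11 on the log2 scale. Of 26 iron, heme and metallothionein genes 8 rose and 2 fell (median 0.27, between -0.40 and 0.04 with 2 to 6 higher and 2 to 12 lower under the centrings). Hmox1, the heme-degrading oxygenase, stood at 7.88 and 7.90 on the air arrays and 8.84 and 8.93 on the smoke arrays. Blvrb, a biliverdin reductase, and Flvcr1, a heme exporter, rose by 1.31 ± 0.21 and 2.0 ± 0.27. The genes Trf (transferrin, an iron carrier) and Cp (ceruloplasmin) fell by 1.32 and 1.73 on the log2 scale. On the list of the aryl hydrocarbon receptor and phase I enzymes 12 of 23 genes fell and 1 rose (median -1.15, between -1.82 and -1.38 with 0 higher and 12 to 19 lower). Over all annotated genes of the list the median was -0.8. The classic receptor target Cyp1b1 was not called (0.62), and Tiparp, another, rose by 0.78 ± 0.18. Falls included enzymes that lung epithelium and mesenchyme make, Aldh1a1, a retinal dehydrogenase, at 12.67 and 12.98 on the air arrays and 9.36 and 9.97 on the smoke arrays, and Cyp4b1 and Cyp2b10, lung cytochromes, at -2.51 and -2.47. Risen p53 targets numbered 2 without smoke replicate 1 or 2, and iron genes 0 without smoke replicate 1, 1 without smoke replicate 2 and 5 without either Spp1-/- array. Fallen p53 targets numbered 6 without air replicate 1, and iron genes 0 without smoke replicate 1 or 2, 1 without either Spp1-/- array and 1 without air replicate 2. Fallen phase I genes numbered 7 without smoke replicate 1, and the single rise became 0 without smoke replicate 1 or 2, 2 without air replicate 1 and 0 without air replicate 2. Calls were lost without smoke replicate 1 for Hmox1, Blvrb, Flvcr1, Trf, Cp and Tiparp, without smoke replicate 2 for Hmox1, Blvrb, Trf, Cp and Tiparp, without either Spp1-/- array for Cp and without air replicate 2 for Trf and Tiparp.

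Other lists gave rises near the background share of 11.1%, and some gave more falls than the 10.3% of all tested genes. Toll-like receptors and their adaptors gave 3 rises and 0 falls among 26, TNF ligands and receptors 2 and 6 among 23, eicosanoid genes 2 and 3 among 21, cholesterol efflux genes 2 and 1 among 20, and sterol and fatty acid synthesis 3 and 1 among 25. Heat shock genes gave 4 rises and 3 falls among 24, and the falls were all of small heat shock proteins that muscle and epithelium make, Hspb1 (-2.89), Cryab (-2.36) and Hspb8 (-2.04). Hypoxia genes gave 2 and 2 among 18. Complement fell in 5 of 18 genes and rose in 1, with Serping1, the C1 inhibitor, at 11.83 and 12.63 on the air arrays and 8.98 and 9.61 on the smoke arrays and Hc, the gene of component C5, at 11.03 and 11.70 on the air arrays and 8.18 and 8.62 on the smoke arrays. Both smoke arrays lay below both air arrays for these 2 genes. Hpgd, which inactivates prostaglandins and is made by lung epithelium and endothelium, fell by 3.29 on the log2 scale. The rises on these 8 lists, in this order, numbered 0, 1, 1, 1, 0, 0, 1 and 0 without smoke replicate 1, 0, 0, 1, 1, 1, 0, 1 and 0 without smoke replicate 2, 1, 1, 1, 2, 2, 0, 2 and 1 without either Spp1-/- array, 5, 7, 2, 4, 3, 4, 4 and 2 without air replicate 1 and 4, 2, 4, 5, 2, 3, 2 and 1 without air replicate 2. Falls of TNF genes numbered 2 without smoke replicate 1 or 2 and 2 without either Spp1-/- array, of complement 3 without smoke replicate 1, of eicosanoid genes 1 without either Spp1-/- array and 7 without air replicate 1 and of hypoxia genes 1 without smoke replicate 1 or 2 and 1 without either Spp1-/- array. Those of Toll-like receptor genes numbered 2 without air replicate 1, of cholesterol efflux 0 without smoke replicate 1 or 2 and 0 without either Spp1-/- array and of sterol synthesis 4 without air replicate 1 and 2 without air replicate 2. Under the 4 centrings the rises on the 8 lists, in the same order, were 0 to 1, 1 to 2, 1, 2, 0 to 1, 0, 1 and 0 to 1 and the falls 0 to 12, 7 to 15, 4 to 14, 1 to 9, 3 to 17, 5 to 13, 3 to 11 and 7 to 14. The call of Hspb8 was lost without smoke replicate 1 and without smoke replicate 2.

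Structural genes fell across epithelium, endothelium, fibroblasts, smooth muscle and mesothelium. Of the 157 structural genes that fell, 134 fell at least 2-fold and 76 at least 4-fold. The groups were apart for all 157, but they were also apart for 59.6% of all tested genes, 24.8% of them lower. Their smoke means ran from 6.86 to 14.74, and 19 lay below the median of all probe values. In alveolar type II epithelium, which makes surfactant, 12 of 18 genes fell and 0 rose (median -1.65, and -1.45 over all annotated genes of the list). Sftpc, a surfactant protein of these cells, stood at 14.79 and 15.01 on the air arrays and 11.89 and 12.47 on the smoke arrays, a difference of -2.72 ± 0.30 (SE; limma adjusted p = 0.00513). Nkx2-1, their lineage factor, stood at 10.49 and 10.79 on the air arrays and 8.35 and 8.80 on the smoke arrays. In type I epithelium, the thin lining for gas exchange, 11 of 15 fell and 1 rose. Ager, a receptor of the type I surface, stood at 13.20 and 13.79 on the air arrays and 10.09 and 11.15 on the smoke arrays, and Aqp5, a water channel, at 11.02 and 11.59 on the air arrays and 8.38 and 9.17 on the smoke arrays. All smoke values lay below the air values for these 4 genes. The rise was that of Pdpn (podoplanin), a type I gene that macrophages and lymphatic vessels can also express, at 12.77 and 12.91 on the air arrays and 13.93 and 13.68 on the smoke arrays, a difference of 0.97 ± 0.13 (SE; limma adjusted p = 0.00807). The call of Pdpn was lost without smoke replicate 1.

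Many airway genes fell, with exceptions among the genes that define ciliated cells. Of 17 club and secretory cell genes 12 fell and 0 rose (median -1.99). Scgb1a1, the club cell secretory protein, stood at 15.88 and 15.94 on the air arrays and 14.66 and 14.82 on the smoke arrays, a difference of -1.18 ± 0.16 (SE; limma adjusted p = 0.00964), and its air values were close to the highest value on the arrays (16.014). Sec14l3, a lipid-binding airway gene, stood at 13.78 and 13.75 on the air arrays and 10.27 and 11.34 on the smoke arrays. Of 20 ciliated cell genes 8 fell (median -0.80), among them Tppp3, at 10.26 and 10.63 on the air arrays and 9.07 and 8.87 on the smoke arrays, and the dynein gene Dynlrb2, at -2.09. Foxj1, the factor that defines these cells, stood at 7.98 and 7.89 on the air arrays and 8.05 and 7.87 on the smoke arrays and overlapped between groups. Its values lay not far above the median of all probe values (7.26), which leaves little room for a fall. Of 13 genes shared by epithelia 4 fell and 1 rose, the keratin gene Krt18 with a difference of -1.71 ± 0.28, while Cdh1 (E-cadherin) was not called (-0.22). Fallen club cell genes numbered 2 without smoke replicate 1 and 6 without smoke replicate 2, ciliated genes 4 without smoke replicate 1 and 5 without smoke replicate 2 and shared epithelial genes 1 without smoke replicate 1 or 2 and 2 without either Spp1-/- array, and the single rise of the last became 0 without smoke replicate 1 or 2, 0 without either Spp1-/- array and 0 without air replicate 1. Named genes lost their calls without smoke replicate 1 for Scgb1a1 and Krt18 and without smoke replicate 2 for Scgb1a1 and Krt18.

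Endothelial genes gave 31 falls and 0 rises among 38 (median -2.20, and -1.61 over all annotated genes of the list). Cldn5, a tight junction protein of vessels, stood at 13.31 and 13.91 on the air arrays and 10.03 and 10.82 on the smoke arrays, a difference of -3.18 ± 0.36 (SE; limma adjusted p = 0.00553). Pecam1, an adhesion molecule of vessels and of some leukocytes, stood at 10.91 and 10.64 on the air arrays and 8.09 and 8.37 on the smoke arrays, and Cdh5, the endothelial cadherin, at 10.62 and 10.88 on the air arrays and 8.21 and 8.60 on the smoke arrays. The groups did not overlap for these 3. Genes of lymphatic vessels fell too. Lyve1, which some macrophages also express, had a difference of -2.56 ± 0.18 and Ccl21a, a chemokine that draws dendritic cells, one of -2.98 ± 0.21. Vwf, the clotting factor of larger vessels, and Kdr, the main Vegfa receptor, were not called (-0.14 and -0.07). Fallen endothelial genes numbered 20 without smoke replicate 1.

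In fibroblasts 24 of 31 genes fell and 0 rose (median -1.95, and -1.72 over all annotated genes of the list). Dcn (decorin), a matrix proteoglycan, stood at 11.47 and 12.07 on the air arrays and 8.40 and 8.51 on the smoke arrays, a difference of -3.31 ± 0.30 (SE; limma adjusted p = 0.00329). Pdgfra, the receptor of alveolar fibroblasts, stood at 11.68 and 11.33 on the air arrays and 8.86 and 9.07 on the smoke arrays, and Col3a1, a fibrillar collagen, at 9.70 and 9.50 on the air arrays and 7.56 and 7.74 on the smoke arrays. Both smoke arrays lay below both air arrays. Basement membrane genes, made by several structural cells, fell in 12 of 17, with the paired collagen IV genes Col4a1 at -3.01 ± 0.24 and Col4a2 at -2.97 ± 0.28. Of 20 smooth muscle and pericyte genes 15 fell (median -1.05, and -0.62 over all annotated genes of the list). They included Mylk, the myosin light chain kinase, at -3.12 ± 0.18 and the intermediate filament gene Des at -2.58 ± 0.23. Acta2, smooth muscle actin, stood at 11.74 and 12.21 on the air arrays and 10.61 and 10.48 on the smoke arrays. Mesothelium, which covers the lung, fell in 5 of 6 genes, and Msln (mesothelin) stood at 8.73 and 9.01 on the air arrays and 7.17 and 7.27 on the smoke arrays. Cardiac muscle, found in the walls of mouse pulmonary veins, fell in 5 of 9, with the actin gene Actc1 at 9.50 and 9.59 on the air arrays and 7.19 and 7.47 on the smoke arrays. Leaving out arrays gave 6 without smoke replicate 1 and 7 without smoke replicate 2 for fallen basement membrane genes, 7 without smoke replicate 1 and 9 without smoke replicate 2 for smooth muscle, 3 without smoke replicate 1 and 2 without smoke replicate 2 for mesothelium and 1 without smoke replicate 1, 3 without smoke replicate 2 and 3 without either Spp1-/- array for cardiac muscle. Schwann and neural cell genes gave 1 rise and 1 fall among 5, and the rise became 0 without smoke replicate 1 or 2. The call of Acta2 was lost without smoke replicate 1 and without smoke replicate 2.

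Genes for contacts and for signals between structural cells fell as well. Of 21 junction and caveola genes 14 fell and 1 rose (median -1.35, and -0.73 over all annotated genes of the list). Gja1, the gap junction protein connexin 43, stood at 11.33 and 11.95 on the air arrays and 8.66 and 7.99 on the smoke arrays. Cav1, the coat protein of caveolae, stood at 13.96 and 13.85 on the air arrays and 12.60 and 12.52 on the smoke arrays. The rise was that of Pkp2, a desmosomal plaque protein, at 1.68 ± 0.35. Of 28 morphogen pathway genes 12 fell and 0 rose (median -0.58, and -0.22 over all annotated genes of the list). They included Tbx4, the factor of lung mesenchyme, at -2.27 ± 0.10 and the Wnt modulator Dkk3 at -3.03 ± 0.24. Fallen morphogen genes numbered 3 without smoke replicate 1 and 6 without smoke replicate 2. The call of Pkp2 was lost without smoke replicate 1, without smoke replicate 2 and without either Spp1-/- array.

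Genes of other blood cells gave more falls than rises, and 35 of 61 were not called. Of 18 granulocyte, mast cell and platelet genes 9 fell and 1 rose (median -0.84). With the 13 genes below the filter the median was -0.1. The platelet genes Ppbp and Gp9 stood at 11.30 and 11.40 in air and 8.31 and 9.41 in smoke, and at 10.17 and 10.32 in air and 7.96 and 8.69 in smoke. Gata2, the factor of mast cells and of endothelium, changed by -2.99 ± 0.29. The rise was that of S100a8, a calcium-binding protein of neutrophils and monocytes, at 8.09 and 7.80 on the air arrays and 9.66 and 9.65 on the smoke arrays, a difference of 1.72 ± 0.13 (SE; limma adjusted p = 0.00246), while its partner S100a9 stood at 10.67 and 10.61 on the air arrays and 10.22 and 10.33 on the smoke arrays and was not called. Of 14 B cell genes 6 fell and 0 rose. Among T and NK cell genes 5 of 21 fell and 2 rose, with the receptor chain gene Cd3e at -1.49 ± 0.23. Of 8 erythroid genes 3 fell, with the globin gene Hba-a1 at 14.24 and 14.81 in air and 11.57 and 12.85 in smoke. Fallen granulocyte and platelet genes numbered 4 without smoke replicate 1, B cell genes 2 without smoke replicate 1, T and NK genes 1 without smoke replicate 1 or 2, 2 without either Spp1-/- array and 3 without air replicate 2 and erythroid genes 0 without smoke replicate 1, 0 without either Spp1-/- array and 1 without air replicate 2. The T and NK rises numbered 0 without smoke replicate 1 or 2 and 0 without either Spp1-/- array, and those of B cell genes, 0 with all arrays, 1 without air replicate 1. Named lymphoid and erythroid genes lost their calls without smoke replicate 1 for Cd3e and Hba-a1, without smoke replicate 2 for Cd3e, without either Spp1-/- array for Hba-a1 and without air replicate 2 for Hba-a1.

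Among the 40 largest rises were genes on no list, some of them for surface proteins of myeloid cells. Cd200r2, a member of the Cd200 receptor family, stood at 7.40 and 7.47 on the air arrays and 10.42 and 10.37 on the smoke arrays, a difference of 2.95 ± 0.13 (SE; limma adjusted p = 0.00128). Aqp9, a channel for water and glycerol, stood at 10.15 and 9.58 on the air arrays and 12.66 and 12.66 on the smoke arrays, and Cxcr1, a receptor for neutrophil chemokines, at 11.30 and 11.50 on the air arrays and 14.17 and 14.24 on the smoke arrays. The orphan receptor gene Gpr176 rose by 2.96 ± 0.20, Rgcc, a cell cycle regulator, by 2.92 ± 0.16, Bok, of the Bcl2 family, by 2.45 ± 0.15, and AA467197, also named Nmes1, by 4.12 ± 0.17. All 7 were called in each leave-one-out fit, and the absence of overlap between groups was a condition of their choice. Of the 40 largest falls, Serpinh1, the chaperone of collagen, stood at 12.70 and 12.99 on the air arrays and 9.21 and 9.51 on the smoke arrays, a difference of -3.49 ± 0.16 (SE; limma adjusted p = 0.00128). Pcolce2, an enhancer of procollagen processing, changed by -3.23 ± 0.28 and Zeb1, a factor of mesenchymal cells, by -3.03 ± 0.14. Itgad, an integrin chain of leukocytes, stood at 11.36 and 10.35 on the air arrays and 7.34 and 7.89 on the smoke arrays, a difference of -3.24 ± 0.37. These 4 falls were also called in each of the 6 fits.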

How the data were processed

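The deposited values are the authors' log2 intensities, 1 per probe and array, from 6 arrays in 3 groups of 2. The sorted values of any pair of arrays differed by at most 0.0056, as after quantile normalisation, and per the submitters' processing notes limma was used. The sources used here name no background correction. The scanner table, with 12 columns that match no sample's labels, was not used, so the planned normalisation from it could not be run and there is no filter on detection. The number of arrays limits the precision.

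Of 45281 probes 34885 had 1 gene symbol, 18 several and 10378 none. Each gene was taken by its brightest probe (mean over 6 arrays), and genes in the brighter 50% of probes (log2 level of at least 7.274) were tested with limma 3.58.1 in R 4.3.3 (lmFit and eBayes, 1 coefficient per group, 3 residual and 2.24 prior degrees of freedom, two-sided, Benjamini-Hochberg over 12382 genes, called under 0.05). On simulated data for this design and number of genes, 32 of 50 genes changed by 1 on the log2 scale were recovered. Of those changed by 2 it was 49 of 50, and of those changed by 0.5 it was 2 of 50. The simulation left 12182 genes unchanged, whereas 2645 of 12382 were called in the data, and gave all groups 1 spread per gene. These rates need not hold for this comparison. Named genes were up to 40 of the largest differences in each direction, up to 10 of a list by p-value in each direction, members of lists of at most 30 genes, and cell type markers. Of the 134 named genes that were called, 20 had a dimmer probe of opposite sign, beyond 0.5 only for Acp2 (from -0.96 to 1.61). The genes described and the gene lists were chosen with earlier results of these data known, and lists were given counts and medians, with no set test. Alternatives were other filters, the mean of probes, other priors, array weights, 4 arrays only, a replicate block, removal of the floor, each array left out, and 4 centrings, of which the 2 by gene-wise differences were added after seeing the data.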

Additional observations from a re-analysis of the deposited data

How the results depend on the processing

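Of 2645 called genes on the deposited scale, 1489 (711 higher, 778 lower) were called with only the 4 wild type arrays. Centring on the median level of leukocyte genes gave 8379 (347 higher, 8032 lower), and on that of macrophage genes 366 higher and 2648 lower. Centring on gene-wise differences left 743 higher (leukocyte genes), and 492 higher and 3387 lower (macrophage genes). Leaving out 1 array gave 743 to 3858 called genes, 299 to 2107 higher and 444 to 1751 lower. The other filters, the mean of probes, the other prior, array weights, the replicate block (2248, with 1136 higher and 1112 lower) and removal of the floor stayed within 1.5 times in all 3 counts. The labels do not say that replicate numbers pair the arrays, and the deviations of arrays with the same number correlated at 0.14, -0.08 and -0.03. Of 134 named genes called, 87 were called in each alternative that tested them, and calls were lost most often without smoke replicate 1 (33) and smoke replicate 2 (28). By construction a centring subtracts 1 value from each array. It turned the sign of Atf4 (-0.61, -0.40, -0.17 and -0.37 on leukocyte and macrophage levels and on their gene-wise differences), Flt3 (-0.62, -0.41, -0.18 and -0.38), Foxj1 (-0.65, -0.44, -0.20 and -0.41), Lyz2 (-0.58, -0.37, -0.14 and -0.34), Marco (-0.24 and -0.03 on levels) and, on leukocyte levels, Cyp1b1 (-0.05), Hspa5 (-0.18) and Spi1 (-0.18). The mean of probes turned Chil3 (0.26). Over the leave-one-out fits the values of genes that changed sign in 1 or more of them ranged from -0.01 to 0.13 for Atf4, from -0.07 to 0.04 for Chil3, from -0.06 to 0.11 for Foxj1, from -0.19 to 0.04 for Kdr, from -0.38 to 0.09 for Vwf and from -0.24 to 0.10 for Xcr1. The cause of these changes of sign was not tested. Depth has no meaning for arrays, and probes near the median of all values limit what can be read for Flt3, Xcr1 and Kdr, and to a lesser degree for Foxj1.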
